A study of Mus musculus with 24 samples.

Results

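Wild-type round spermatids were compared with wild-type pachytene/diplotene spermatocytes, gene by gene, to find which genes and functions separate the postmeiotic from the meiotic fraction of the adult mouse testis. The comparison used 7 bulk poly(A) RNA-seq libraries of the 24 in the study, namely round spermatid replicates 1, 2 and 4 and spermatocyte replicates 1, 2, 4 and 5, and it covered the 18629 genes, of 55536 in the table, that had 10 or more counts in 3 or more of these 7 libraries. The wider study sequenced the same 2 fractions from mice that were wild-type, heterozygous or null for Ago413, a deletion on chromosome 4 that takes out Ago1 and parts of Ago3 and Ago4, genes of the Argonaute family that bind small RNAs. Every library used here was Ago413+/+ on a C57BL/6J background and came from males aged 10-15 weeks, with no treatment in either group. Each one was a preparation from the pooled testes of 2-5 mice, whose germ cells were spread by size through a gradient of bovine serum albumin and kept at a purity of at least 70%. A library is therefore a pool of animals and a fraction is a mixture rich in 1 stage. Since the labels do not say that the 7 pools were made from separate animals, p-values measure the spread between these preparations. In bulk RNA, fewer cells of a type and less RNA per cell cannot be told apart.

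Germ cells pass meiosis as spermatocytes, which pair and recombine their homologous chromosomes during a long prophase, keep the X and Y silent in the sex body and make the small RNAs called piRNAs in large amounts. The haploid round spermatids that follow lay down the acrosome, a secretory cap that helps the sperm to reach the egg, and begin the flagellum, and they store many mRNAs that are translated only when the nucleus is condensed. During that condensation histones give way to transition proteins and then to protamines. Spermatids can also share transcripts across the cytoplasmic bridges that join them.

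Depth lay between 15446660 and 27433487 counts in the round spermatid libraries and between 12825105 and 29749058 in the spermatocyte libraries, so that 3 counts, the most that a count of 0 allows, stood for 0.101 to 0.234 CPM, the usual scaling of counts to the size of the library. Such limits cover counting error only. No 2 libraries of a fraction were repeats of each other, with a chi-square statistic per gene of 10.2 or more in each of the 9 pairs. The library of each fraction that the labels number replicate 3 and call an outlier was left out. Over log2 CPM of the tested genes, the library labelled round spermatid replicate 3 correlated best with spermatocyte replicate 5 (Pearson's r across genes 0.978), while its values with the other spermatocytes (0.948 to 0.952) and with the round spermatids (0.943 to 0.968) overlapped. The library labelled spermatocyte replicate 3 went against its label, since it correlated best with round spermatid replicate 2 (0.986) and least with spermatocyte replicate 4 (0.947). With both added back, no gene was called by edgeR, while 4627 had an unadjusted p under 0.05. Among the 4 spermatocyte libraries in use, replicate 5 had the highest mean level of each round spermatid list and replicate 4 had the lowest of the late list, and counts that move with them are given beside the results.

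Marker genes were read first, as a check of the labelled cell types. Values are given throughout in the order of round spermatid replicates 1, 2 and 4 and of spermatocyte replicates 1, 2, 4 and 5, as CPM after TMM scaling. Adjusted p-values come from edgeR's quasi-likelihood test with Benjamini-Hochberg adjustment over the 18629 genes, and a gene was called when that value was under 0.05 and the absolute log2 fold change (round spermatids minus spermatocytes) was above 0.5. By this rule 2433 genes were higher in round spermatids (13.1% of those tested) and 2099 were lower (11.3%), 24.3% in all. Of 8 genes taken as marks of pachytene/diplotene spermatocytes, 4 were lower in round spermatids and none was higher. Sycp3, an axial protein of the synaptonemal complex, stood at 43.98, 45.3 and 40.5 CPM in round spermatids and 134, 108, 203 and 90.2 CPM in spermatocytes (log2 fold change -1.63 ± 0.24 SE, adjusted p = 0.00102). Every round spermatid library was below every spermatocyte library. Mybl1, a transcription factor of pachytene cells, fell as clearly, from 73.9 ± 15.3 CPM (SD, n = 4) in spermatocytes to 28.2 ± 3.72 CPM (SD, n = 3) in round spermatids (log2 fold change -1.39 ± 0.18 SE, adjusted p = 0.000636). Piwil1 and Sycp1 were also called lower, but their libraries overlapped, and the call on Piwil1 was lost without round spermatid replicate 2 (adjusted p = 0.0712) or 4 (0.0674). The call on Sycp1 was lost without any one of the 3 round spermatid libraries (adjusted p between 0.0673 and 0.0939). The other 4, Hspa2, Ccna1, Ovol2 and Hist1h1t, were not called. Hspa2, a chaperone of meiotic prophase, was at 1453 to 1530.3 CPM in round spermatids and 1635 to 1845 CPM in spermatocytes, and Ccna1, the germ cell cyclin A, at 245 to 283 CPM in round spermatids and 225 to 294 CPM in spermatocytes.

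Of 8 round spermatid markers, the 3 that serve nuclear condensation were higher and the 5 that serve the acrosome, fusion or the calcium channel of the tail were not called. Prm1, the first of the protamines, was at 5919, 4512 and 5922 CPM in round spermatids and 1561, 1366, 639 and 1659 CPM in spermatocytes (log2 fold change 2.06 ± 0.26 SE, adjusted p = 0.000591). Every round spermatid library was far above the highest spermatocyte library, replicate 5, and replicate 4 was the lowest. Acr, the acrosomal protease acrosin, was at 242, 239 and 245 CPM in round spermatids and 218, 202, 217 and 265 CPM in spermatocytes, with overlapping libraries (log2 fold change 0.10 ± 0.12 SE, adjusted p = 0.554). Acrv1, another acrosomal protein, reached its highest level of all 7 libraries, 241 CPM, in spermatocyte replicate 5. Spaca1, Izumo1 and Catsper3 had log2 fold changes of 0.25, 0.38 and 0.58 with adjusted p-values of 0.464, 0.21 and 0.0736. Without spermatocyte replicate 5, Acrv1 (0.63, adjusted p = 0.0102), Izumo1 (0.61, adjusted p = 0.0064) and Catsper3 (0.80, adjusted p = 0.00274) were called higher, and Catsper3 was also called without round spermatid replicate 1 (adjusted p = 0.0472) and with consecutive library numbers as a block (adjusted p = 0.0112).

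Stage lists, which the study had drawn from single cells of wild-type testes and not from these libraries, were counted next. Of 64 tested genes of the late round spermatid list, 63 were higher in round spermatids, with a median log2 fold change of 1.74 over the list against 0.03 over all tested genes. Of 63 genes of the elongating spermatid list, 60 were higher (median 1.54). At the other end, 67 of 90 pachytene genes were lower (median -1.31), as were 29 of 96 genes of diplotene to the second meiotic division and 27 of 93 leptotene/zygotene genes. Of the last list 1 was higher, 4 without spermatocyte replicate 4 and 0 without any 1 of the other libraries but spermatocyte replicate 5. The number of pachytene genes called fell to 42 without round spermatid replicate 2, and that of the diplotene list to 18. The early round spermatid list behaved differently. All 98 of its tested members had a positive log2 fold change (median 0.47), yet 10 were called, and the count became 1 without round spermatid replicate 2 or spermatocyte replicates 1, 2 or 4, 0 without round spermatid replicate 4 and 81 without spermatocyte replicate 5. With consecutive library numbers as a block it was 31, and with library totals 1. Library totals also gave 55 lower genes of the diplotene list and 45 of the leptotene/zygotene list. The spermatogonial list had 22 of 95 genes higher and 2 lower, and the number of higher genes was 8 without round spermatid replicate 2, 14 without round spermatid replicate 4 and 11 without spermatocyte replicate 1, and 11 with library totals. That of lower genes was 0 without round spermatid replicates 1 or 4 or spermatocyte replicates 2 or 4, 1 without round spermatid replicate 2 and 9 without spermatocyte replicate 5, 4 under the block and 6 with library totals.

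The mean log2 CPM of each list in each library gives the levels behind these counts. For the late round spermatid list it was 7.82, 7.53 and 7.73 in round spermatids and 6.18, 6.14, 5.21 and 6.25 in spermatocytes, so the groups did not overlap and spermatocyte replicate 4 was lowest. For the early round spermatid list it was 6.20, 6.60 and 6.71 in round spermatids and 5.77, 5.88, 5.81 and 6.63 in spermatocytes. There, spermatocyte replicate 5 was higher than round spermatid replicates 1 and 2, and the 3 other spermatocyte libraries were below all round spermatids. The pachytene list gave 4.39, 4.08 and 4.14 in round spermatids and 5.62, 5.10, 5.91 and 4.74 in spermatocytes, highest in spermatocyte replicate 4 and lowest, among spermatocytes, in replicate 5. A two-sided exact permutation test over the libraries gave p = 0.0571, the smallest that 3 libraries against 4 allow, for 6 of the 7 lists and p = 0.171 for the early round spermatid list (adjusted over the 7 lists, 0.0666 and 0.171). The 2 libraries that were left out are drawn beside the others in the plot of stage lists. The library labelled round spermatid replicate 3 was mixed, at 5.84 within the range of the spermatocytes on the late round spermatid list and at 4.22 within that of the round spermatids on the pachytene list. The library labelled spermatocyte replicate 3 was at 6.99 on the late round spermatid list, between the 2 groups, and at 4.12 on the pachytene list, within the range of the round spermatids.

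**Figure D1:**
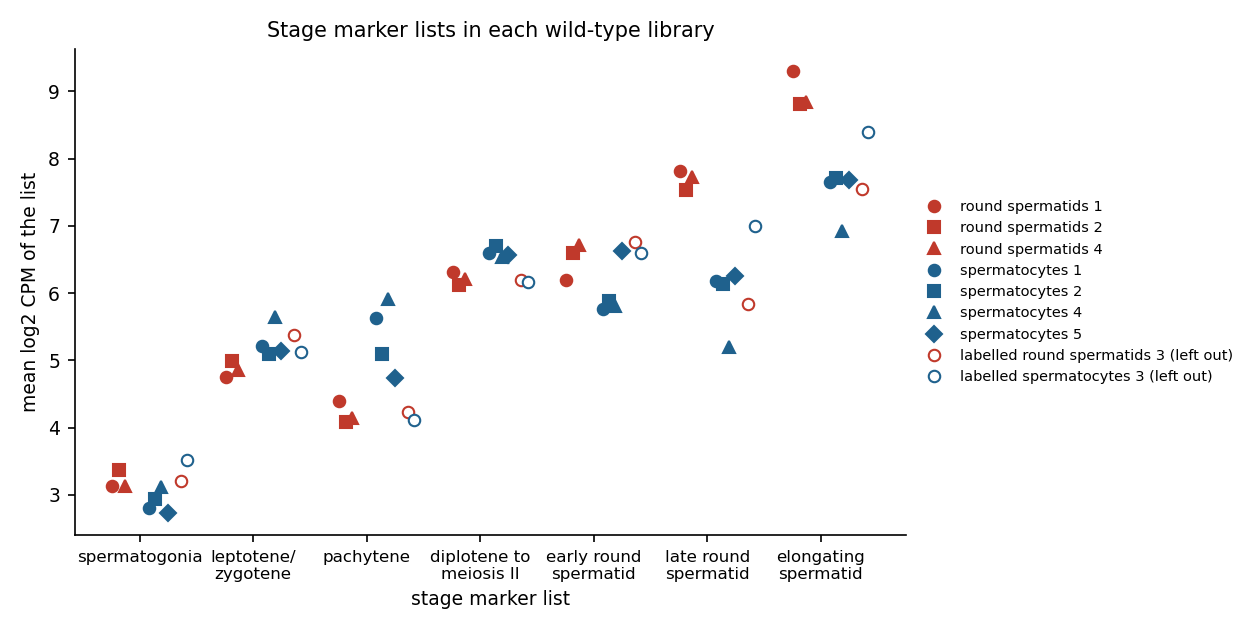
Mean log2 CPM (vertical axis) of 7 stage marker lists (horizontal axis) in each wild-type library; filled red symbols are the 3 round spermatid libraries, filled blue symbols the 4 spermatocyte libraries, and open circles the 2 libraries that the labels call outliers. The groups stand apart for the pachytene, late round spermatid and elongating spermatid lists, while spermatocyte replicate 5 (blue diamond) lies among the round spermatids on the early round spermatid list.

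Calls were sparse at the lowest levels of expression. When a CPM of 1 or more was required in 3 libraries, 16139 genes were tested and 4399 of them called. Among the 4532 genes called with TMM scaling, the median log2 fold change was 1.19 for genes higher in round spermatids and -0.93 for lower ones. Higher genes thus differed more at that scaling, and these medians were not compared under other scalings. More than 2-fold differences were found for 1564 higher and 917 lower genes, and more than 4-fold ones for 151 and 53. Without regard to the test, the 3 round spermatid libraries lay all above or all below the 4 spermatocyte libraries for 35.5% of the tested genes (18.4% above and 17.2% below). Of the 4532 called genes, 4485 were called in the same direction by DESeq2. Leaving out spermatocyte replicate 5 raised the calls to 3697 higher and 3213 lower genes, and 4441 of the 4532 were among them. The balance between the directions depended on the scaling. TMM gave 53.7% higher genes among the calls with a median log2 fold change of 0.03 over all genes, upper-quartile factors gave 63.0%, and plain library totals gave 33.3% with a median of -0.17. With library totals the medians of the gene lists described here changed by -0.21 to -0.18. The 10 most abundant genes made up 4.83% ± 0.401 (SD, n = 3) of the counts in round spermatids and 3.25% ± 0.0479 (SD, n = 4) in spermatocytes. Each round spermatid library was above each spermatocyte library in this share (exact permutation p = 0.0571, adjusted over 5 such shares 0.0952). The 5 most abundant genes of the round spermatids were Prm2, Odf2, Prm1, Tnp2 and mt-Co1, and those of the spermatocytes were Ldhc, Odf2, Pabpc1, mt-Co1 and Fhl4. Of these, mt-Co1, a mitochondrial subunit of cytochrome oxidase, was at 5716, 4590.3 and 3949.5 CPM in round spermatids and 3056, 2004, 4324 and 2909 CPM in spermatocytes. Its libraries overlapped, its call (log2 fold change 0.63 ± 0.21 SE, adjusted p = 0.0489) was lost without 5 of the 7 libraries, and its log2 fold change was 0.48 under the block of consecutive library numbers.

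**Figure D2:**
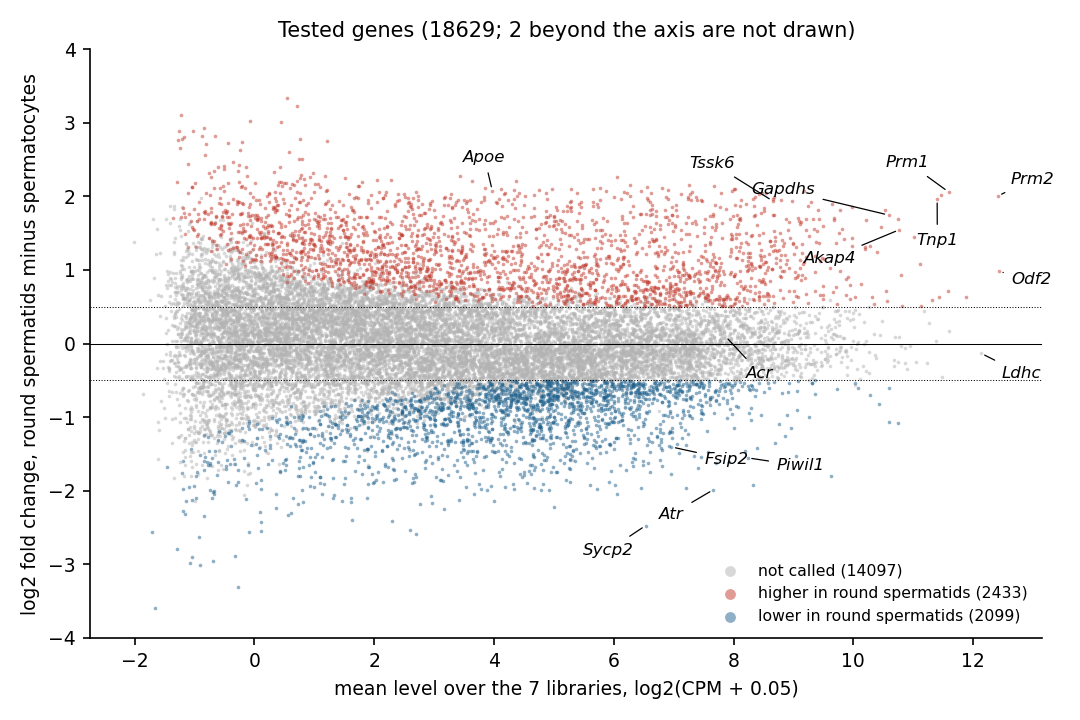
Log2 fold change between round spermatids and spermatocytes (vertical axis) against the mean level over the 7 libraries as log2(CPM + 0.05) (horizontal axis) for each tested gene; red marks the 2433 genes called higher, blue the 2099 called lower and grey the rest, dotted lines mark 0.5 and -0.5, and 2 genes beyond the axis are not drawn. Genes of the sperm nucleus and tail lie at the upper right, genes of the meiotic chromosome axis at the lower middle.

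Among protein-coding genes with at least 10 CPM in the higher fraction, the 10 largest rises in round spermatids lay between 2.10 and 2.27 on the log2 scale and were all kept when any 1 library was left out. Kif1a, a kinesin motor that carries vesicles along microtubules, led them with 23.5, 18.2 and 17.05 CPM in round spermatids and 4.96, 5.90, 2.28 and 3.31 CPM in spermatocytes (log2 fold change 2.27 ± 0.29 SE, adjusted p = 0.00062). It was followed by Fam131b, Osgin1, Oxct2a, Agpat2, Plekho2, Sdc3, Paqr5, Fam214b and Iqcn. Oxct2a, a testis form of the enzyme that opens ketone bodies for use as fuel, was at 439, 294 and 365 CPM in round spermatids and 100.5, 97.4, 38.4 and 94.7 CPM in spermatocytes (log2 fold change 2.14 ± 0.28 SE, adjusted p = 0.000636). Agpat2, an acyltransferase of phospholipid synthesis, rose by 2.13 ± 0.31. In each of these 10 genes all round spermatid libraries were above all spermatocyte libraries, and spermatocyte replicate 4 was the lowest of the spermatocytes in all but Iqcn.

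The 10 largest falls lay between -1.99 and -2.47. Sycp2, which binds Sycp3 in the chromosome axis, headed them with 26.2, 26.4 and 24.6 CPM in round spermatids and 119, 85.8, 238 and 129 CPM in spermatocytes (log2 fold change -2.47 ± 0.30 SE, adjusted p = 0.000578). Its 3 round spermatid values lay within a few CPM of each other, while spermatocyte replicate 4 alone reached 238 CPM. Knl1, the scaffold of the kinetochore, fell by 2.05 ± 0.28 on the log2 scale (adjusted p = 0.000736) and Zfp638, a zinc finger protein of the nucleus, by 2.23 ± 0.30 (adjusted p = 0.000722). The others were Fam13c, Dact1, Gm9732, Gm5930, 1700006A11Rik, CT030661.1 and Lcorl. None of these 10 falls was lost when 1 library was left out.

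Genes of sperm chromatin packaging were among those with the widest gap. Of 16 tested genes, 8 were higher in round spermatids and none was lower (1 with library totals), and the count of higher ones was the same without any 1 of the 7 libraries. The median log2 fold change was 0.73, and the summed level of the list ran from 24410 to 32380 CPM in round spermatids against 5345 to 9899 CPM in spermatocytes. Prm1 (ENSMUSG00000022501, chr16:10796326-10805839 in GRCm38), Prm2 (ENSMUSG00000038015, chr16:10791380-10796134) and Tnp2 (ENSMUSG00000043050, chr16:10787936-10788660) lie close together on chromosome 16, and Tnp1 (ENSMUSG00000026182, chr1:73015074-73015909) lies on chromosome 1. Prm2, the protamine made as a precursor, was the most abundant gene of the round spermatids with 12442, 8045 and 8170.2 CPM in round spermatids and 2885, 3135, 1073 and 2428 CPM in spermatocytes (log2 fold change 2.00 ± 0.30 SE, adjusted p = 0.000958). Tnp1, the smaller transition protein, was at 4708, 3868 and 5528 CPM in round spermatids and 1347, 1378, 593 and 1495 CPM in spermatocytes (log2 fold change 1.97 ± 0.26 SE, adjusted p = 0.000636), and Tnp2, its partner, at 5280.0, 4150.5 and 5440.3 CPM in round spermatids and 1469.8, 1254, 637 and 1549 CPM in spermatocytes (log2 fold change 2.01 ± 0.25 SE, adjusted p = 0.000578). In all 3 the fractions were fully apart and spermatocyte replicate 4 was the lowest library. Prm3, H1fnt, Hils1 and Chd5 made up the rest of the 8, with log2 fold changes of 1.64, 1.87, 1.21 and 1.45. They were named after their values were seen, as the remaining called members, and encode a small acidic protein of the protamine cluster, 2 spermatid linker histones and a chromatin remodeler of spermatids. Of the members that were not called, H3f3b, which encodes the replacement histone H3.3, was at 441 to 573 CPM in round spermatids and 385 to 666 CPM in spermatocytes (log2 fold change -0.12 ± 0.18 SE, adjusted p = 0.66), and Psme4, the activator of the proteasomes that degrade histones, was at 332 to 540.5 CPM in round spermatids and 469 to 654 CPM in spermatocytes (log2 fold change -0.36 ± 0.17 SE, adjusted p = 0.143).

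Upstream sequences of the genes at both ends of the comparison are shown because they hold different numbers of CG dinucleotides, the sites of DNA methylation. Each line gives the 150 bases before the RefSeq transcript start in GRCm38.p6, written 5′ to 3′ on the strand of the gene, with every CG in capitals. The first 4 belong to the packaging genes that were higher in round spermatids and the last 3 to genes of the synaptonemal complex and chromosome axis that were lower, among them Sycp1, whose call rests on all 3 round spermatid libraries.
Prm1 (chr16:10796824-10796973, minus strand, 0 CG): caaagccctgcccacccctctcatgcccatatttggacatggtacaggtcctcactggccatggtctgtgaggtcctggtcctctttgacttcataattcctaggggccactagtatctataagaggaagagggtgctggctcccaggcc
Prm2 (chr16:10792106-10792255, minus strand, 2 CG): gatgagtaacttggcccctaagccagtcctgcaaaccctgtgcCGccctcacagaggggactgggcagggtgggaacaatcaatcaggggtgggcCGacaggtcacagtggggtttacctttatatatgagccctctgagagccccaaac
Tnp2 (chr16:10788656-10788805, minus strand, 2 CG): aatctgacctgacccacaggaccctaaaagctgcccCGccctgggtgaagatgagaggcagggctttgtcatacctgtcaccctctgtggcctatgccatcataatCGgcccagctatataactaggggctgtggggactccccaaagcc
Tnp1 (chr1:73015900-73016049, minus strand, 2 CG): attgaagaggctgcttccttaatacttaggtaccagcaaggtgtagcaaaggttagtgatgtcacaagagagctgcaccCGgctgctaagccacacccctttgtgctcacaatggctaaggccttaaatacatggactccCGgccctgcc
Sycp3 (chr10:88459437-88459586, plus strand, 10 CG): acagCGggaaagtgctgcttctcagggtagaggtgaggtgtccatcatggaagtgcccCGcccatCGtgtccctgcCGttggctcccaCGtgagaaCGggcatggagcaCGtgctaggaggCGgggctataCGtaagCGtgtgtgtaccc
Sycp1 (chr3:102936101-102936250, minus strand, 14 CG): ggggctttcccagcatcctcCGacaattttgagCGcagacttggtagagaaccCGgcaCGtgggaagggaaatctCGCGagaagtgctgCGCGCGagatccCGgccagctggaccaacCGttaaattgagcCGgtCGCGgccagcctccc
Hormad1 (chr3:95559527-95559676, plus strand, 14 CG): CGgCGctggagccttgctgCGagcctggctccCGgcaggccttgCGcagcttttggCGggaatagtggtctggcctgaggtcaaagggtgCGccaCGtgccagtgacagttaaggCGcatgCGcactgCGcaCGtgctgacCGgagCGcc
The packaging genes held 0 to 2 CG in this window and the meiotic genes 10 to 14. The contrast was not general, since in the same window Tssk6, which was higher, held 10 CG, Gapdhs, also higher, 1, Tdrd1, which was lower, 8, and Ddx4, which was lower, 26. The call on Tdrd1 was lost without round spermatid replicate 2 (adjusted p = 0.0941) or 4 (0.0926) or spermatocyte replicate 1 (0.0507). The RefSeq starts of Prm1 and Prm2 lay 9016 and 4029 bases from the outer ends of their GENCODE gene models, so these windows depend on the annotation. Over the 11133 tested genes with a matching RefSeq start, the 250 bases upstream held a median of 15 CG (quartiles 8 and 22). The median was 11 (4 and 20) in the 1408 matched genes that were higher in round spermatids and 17 (10 and 23) in the 1352 that were lower, and the ranges overlapped widely. The palindromic cyclic AMP response element TGACGTCA was found in 2.62% of all these windows, in 2.49% of the higher and in 3.18% of the lower genes. CAACGG, a core of Myb sites, was found in 5.79%, 4.26% and 7.69% of them. TATAAA, read on the strand of the gene alone, was found in 3.96%, 3.69% and 3.85%. All motifs other than TATAAA were searched on both strands, overlaps with other motifs were kept, and these counts of letters were not tested.

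Genes of the outer dense fibres and fibrous sheath, the scaffold that surrounds the axoneme of the sperm tail, were mostly higher in round spermatids. Of 16, 10 were higher in round spermatids and 1 was lower (median log2 fold change 0.92). Counted among the 10 were also Oaz3 and Smcp, a regulator of polyamine synthesis and a protein of the mitochondrial capsule. Odf2, a main protein of the fibres, was among the 5 most abundant genes of both fractions with 8309.8, 6871 and 7899.9 CPM in round spermatids and 3991, 3909, 3346 and 4356 CPM in spermatocytes (log2 fold change 0.98 ± 0.11 SE, adjusted p = 0.000578). Akap4, the X-linked anchor of protein kinase A in the fibrous sheath, was at 2855, 2744 and 2799.8 CPM in round spermatids and 927, 1091, 629 and 1185 CPM in spermatocytes (log2 fold change 1.55 ± 0.18 SE, adjusted p = 0.000578). Its round spermatid libraries lay between 2744 and 2855 CPM, all above the 1185 CPM of spermatocyte replicate 5. Oaz3, a testis antizyme that restrains polyamine synthesis, rose by 1.81 ± 0.25 on the log2 scale (adjusted p = 0.000735), Smcp, a protein of the mitochondrial capsule, by 1.68 ± 0.26 (adjusted p = 0.00109) and Odf1, another fibre protein, by 1.59 ± 0.23 (adjusted p = 0.000893). The 1 lower member was Fsip2, a large fibrous sheath protein, with 49.6, 68.4 and 74.9 CPM in round spermatids and 76.96, 90.8, 219.8 and 292 CPM in spermatocytes (log2 fold change -1.40 ± 0.41 SE, adjusted p = 0.0272). Its lowest spermatocyte library was 76.96 CPM and its highest 292, and the call was lost without any one of the round spermatid libraries or without spermatocyte replicate 4 (adjusted p between 0.0556 and 0.0922). Ropn1l, a binding partner of the anchor proteins, was at 1038 to 1314 CPM in round spermatids and 1062 to 1504 CPM in spermatocytes and was not called (log2 fold change -0.12 ± 0.13 SE, adjusted p = 0.528).

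Glycolysis, which supplies the ATP of the sperm tail, had 11 of 23 members higher and none lower (median 0.62, but 0.37 without round spermatid replicate 1). Gapdhs, the sperm form of glyceraldehyde-3-phosphate dehydrogenase, was at 3132, 2189 and 2403 CPM in round spermatids and 863, 793, 463 and 951 CPM in spermatocytes (log2 fold change 1.75 ± 0.21 SE, adjusted p = 0.000578). The other 3 named rises were Gpi1, glucose-6-phosphate isomerase, by 1.95 ± 0.24 (adjusted p = 0.000578), Pkm, pyruvate kinase, by 1.71 ± 0.21 (adjusted p = 0.000578) and Hk1, hexokinase, by 1.44 ± 0.16 (adjusted p = 0.000578). All 4 had every round spermatid library above every spermatocyte library. The last step of the pathway behaved otherwise. Ldhc, the germ cell lactate dehydrogenase and the most abundant gene of the spermatocytes, was at 4356, 4094 and 4308 CPM in round spermatids and 4689, 5005, 4427 and 4514 CPM in spermatocytes, with round spermatids slightly lower and no call (log2 fold change -0.13 ± 0.09 SE, adjusted p = 0.286), and Ldha, its somatic counterpart, was not called either (log2 fold change -0.15 ± 0.10 SE, adjusted p = 0.306).

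Sperm kinases and phosphatases had 6 of 13 members higher and none lower (median 0.46, and 0.79 without spermatocyte replicate 5), whereas library totals gave 5 higher, 1 lower and a median of 0.28. Tssk6, a testis-specific serine kinase that is needed for late spermatid shaping, was at 991, 582 and 520.4 CPM in round spermatids and 229, 247, 84.97 and 168 CPM in spermatocytes (log2 fold change 1.94 ± 0.32 SE, adjusted p = 0.00166). Round spermatid replicate 1 was well above replicates 2 and 4, but all 3 were above all spermatocyte libraries. Tssk3 rose by 1.58 ± 0.21 (adjusted p = 0.000716) and Tssk2 by 1.35 ± 0.18 (adjusted p = 0.000682). The phosphatase subunit Ppp1cc, at 844 to 863 CPM in round spermatids and 893 to 916 CPM in spermatocytes, was not called. Ppp3r2, a subunit of sperm calcineurin, was at 578 to 629.9 CPM in round spermatids and 669 to 742 CPM in spermatocytes and was not called either.

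The acrosome list divided into a few called genes and many that did not pass. Of 28 genes, 5 were higher and 1 was lower (17.9% and 3.57%, against 13.1% and 11.3% over all genes), the median of 0.23 ran from 0.15 without spermatocyte replicate 1 or round spermatid replicate 4 to 0.45 without round spermatid replicate 1 and 0.50 without spermatocyte replicate 5, and the count of higher genes became 13 without spermatocyte replicate 5. Library totals gave 3 lower genes and a median of 0.045. Actl9, an actin-like protein of the perinuclear theca, was at 797, 577 and 592 CPM in round spermatids and 306, 315, 173 and 289 CPM in spermatocytes (log2 fold change 1.28 ± 0.20 SE, adjusted p = 0.00118). Spaca9, an acrosome-associated protein, rose by 1.22 ± 0.18 (adjusted p = 0.000865) and Ccin, calicin, by 1.10 ± 0.15 (adjusted p = 0.000794), again with no overlap between fractions. Gopc, a Golgi protein that is needed to form the acrosomal vesicle, was the member that fell, with 14.8, 11.5 and 14.7 CPM in round spermatids and 42.98, 39.9, 45.5 and 24.8 CPM in spermatocytes (log2 fold change -1.49 ± 0.22 SE, adjusted p = 0.00102). Zpbp2, a protein of the acrosomal matrix, was at 344 to 379.9 CPM in round spermatids and 425 to 529.5 CPM in spermatocytes. Spata16, a Golgi protein of acrosome formation, was at 401 to 420.3 CPM in round spermatids and 489.6 to 521 CPM in spermatocytes. Their adjusted p-values were 0.0322 and 0.0396, but their log2 fold changes, -0.37 and -0.30, did not reach the size required for a call.

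Genes of sperm-egg fusion and of the sperm surface depended more on single libraries. Of 8 fusion genes 3 were higher and none lower (median 0.57), and the count was 1 without round spermatid replicates 2 or 4 and 8 without spermatocyte replicate 5. Llcfc1, a secreted factor that sperm need to fuse with the egg, was at 478, 424 and 566 CPM in round spermatids and 223, 225, 169.8 and 323 CPM in spermatocytes (log2 fold change 1.06 ± 0.19 SE, adjusted p = 0.00255), with spermatocyte replicate 5 nearest to the round spermatids. Izumo1, the sperm ligand of the egg receptor Juno, was at 68.6, 88.7 and 93.5 CPM in round spermatids and 51.4, 60.1, 50.8 and 93.6 CPM in spermatocytes and was not called (log2 fold change 0.38 ± 0.22 SE, adjusted p = 0.21). In that gene spermatocyte replicate 5 was as high as the highest round spermatid library. The list of ADAM proteases and their chaperones held 6 higher and 2 lower genes of 21, with a median of -0.08. That median turned positive with upper-quartile factors (0.00), without round spermatid replicate 1 (0.08) and without spermatocyte replicate 5 (0.07). It was -0.16 without round spermatid replicate 4 and -0.27 with library totals. The number of lower genes was 0 without round spermatid replicate 1, 1 without spermatocyte replicate 2 and 5 without spermatocyte replicate 5, and 5 with library totals and 0 with upper-quartile factors. Ace, the testis angiotensin-converting enzyme, rose by 1.67 ± 0.18 (adjusted p = 0.000578) from 283 ± 61.5 CPM (SD, n = 4) to 899.9 ± 138 CPM (SD, n = 3). Prss37 and Calr3, which are needed for Adam3 to mature, rose by 1.64 ± 0.25 and 1.54 ± 0.20 (adjusted p = 0.00101 and 0.000624). Adam3 itself, at 1018 to 1306 CPM in round spermatids and 981 to 1405 CPM in spermatocytes, had a log2 fold change of -0.01 ± 0.13. Adam2, its partner on the sperm surface, was lower in round spermatids (log2 fold change -0.54 ± 0.11 SE, adjusted p = 0.00422), a call that was lost without round spermatid replicate 1, where the log2 fold change was -0.46.

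Ion channel and axoneme genes went in both directions. Of 19 tested channel genes 3 were higher and 4 lower (15.8% and 21.1%, against 13.1% and 11.3% over all genes, with a median of -0.15), and library totals gave 1 and 8. The median was -0.08 without spermatocyte replicate 4. The number of higher ones was 8 without spermatocyte replicate 5 and 6 under the block of consecutive library numbers. Atp1a4, the sodium pump of the sperm tail, was at 1081, 1037 and 1116 CPM in round spermatids and 371, 391, 272 and 454 CPM in spermatocytes (log2 fold change 1.54 ± 0.15 SE, adjusted p = 0.000578), and Adcy10, the adenylyl cyclase that bicarbonate activates, rose by 0.63 ± 0.13 (adjusted p = 0.00432). In contrast, 3 genes of accessory subunits of CatSper, the calcium channel of the tail, were lower, of which the annotation lists Catspere1 as an unprocessed pseudogene. Catspere1 was at 17.7, 17.9 and 21.7 CPM in round spermatids and 45.4, 49.8, 58.7 and 47.5 CPM in spermatocytes (log2 fold change -1.40 ± 0.16 SE, adjusted p = 0.000578), Catspere2 had a log2 fold change of -1.50 ± 0.17 (adjusted p = 0.000578) and Catsperb one of -1.17 ± 0.16 (adjusted p = 0.000755). All 3 kept their calls when any library was left out, but Catspere1 and Catspere2 are related genes that could share reads. The pore subunit Catsper2 was not called (log2 fold change -0.32 ± 0.15 SE, adjusted p = 0.127). Catsper1, another pore subunit, was called higher, with overlapping libraries (log2 fold change 0.75 ± 0.23 SE, adjusted p = 0.0323). Its call was kept in 2 of the 7 fits that left out 1 library, among them the fit without spermatocyte replicate 5 (1.02, adjusted p = 0.00016). Genes of this channel thus went in both directions. 

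Of 38 tested axoneme genes, 2 were higher and 7 lower (5.26% and 18.4%, against 13.1% and 11.3% over all genes, with a median of -0.10). Library totals gave 0 and 15, and upper-quartile factors 2 and 4. The number of higher ones was 1 without round spermatid replicates 1 or 2 and 5 without spermatocyte replicate 5, and that of lower ones 4 without round spermatid replicate 1. Ccdc39, a ruler protein that sets the spacing of the axoneme, was at 66.05, 76.5 and 91.1 CPM in round spermatids and 185, 162, 278 and 274 CPM in spermatocytes (log2 fold change -1.53 ± 0.21 SE, adjusted p = 0.000731). Iqcg, of the dynein regulatory complex, fell by 0.92 ± 0.11 (adjusted p = 0.000578), Ift20, which carries cargo into the growing cilium, by 0.88 ± 0.17 (adjusted p = 0.00424) and Rsph1, of the radial spoke, by 0.70 ± 0.14 (adjusted p = 0.00427). Hydin, of the central pair, was higher (log2 fold change 0.58 ± 0.15 SE, adjusted p = 0.0129), but not without round spermatid replicate 2 (adjusted p = 0.0665). Meig1, an abundant gene of the manchette that moves tail proteins, was at 1337 to 1712 CPM in round spermatids and 1176 to 1551 CPM in spermatocytes and was not called (log2 fold change 0.12 ± 0.13 SE, adjusted p = 0.526). Thus tail genes did not move as 1 group. The sheath and fibre list was mostly higher, while 29 of the 38 axoneme genes were not called. Without spermatocyte replicate 5 the axoneme list had 5 higher and 8 lower genes, so the balance of its calls depended on the libraries and the scaling.

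**Figure D3:**
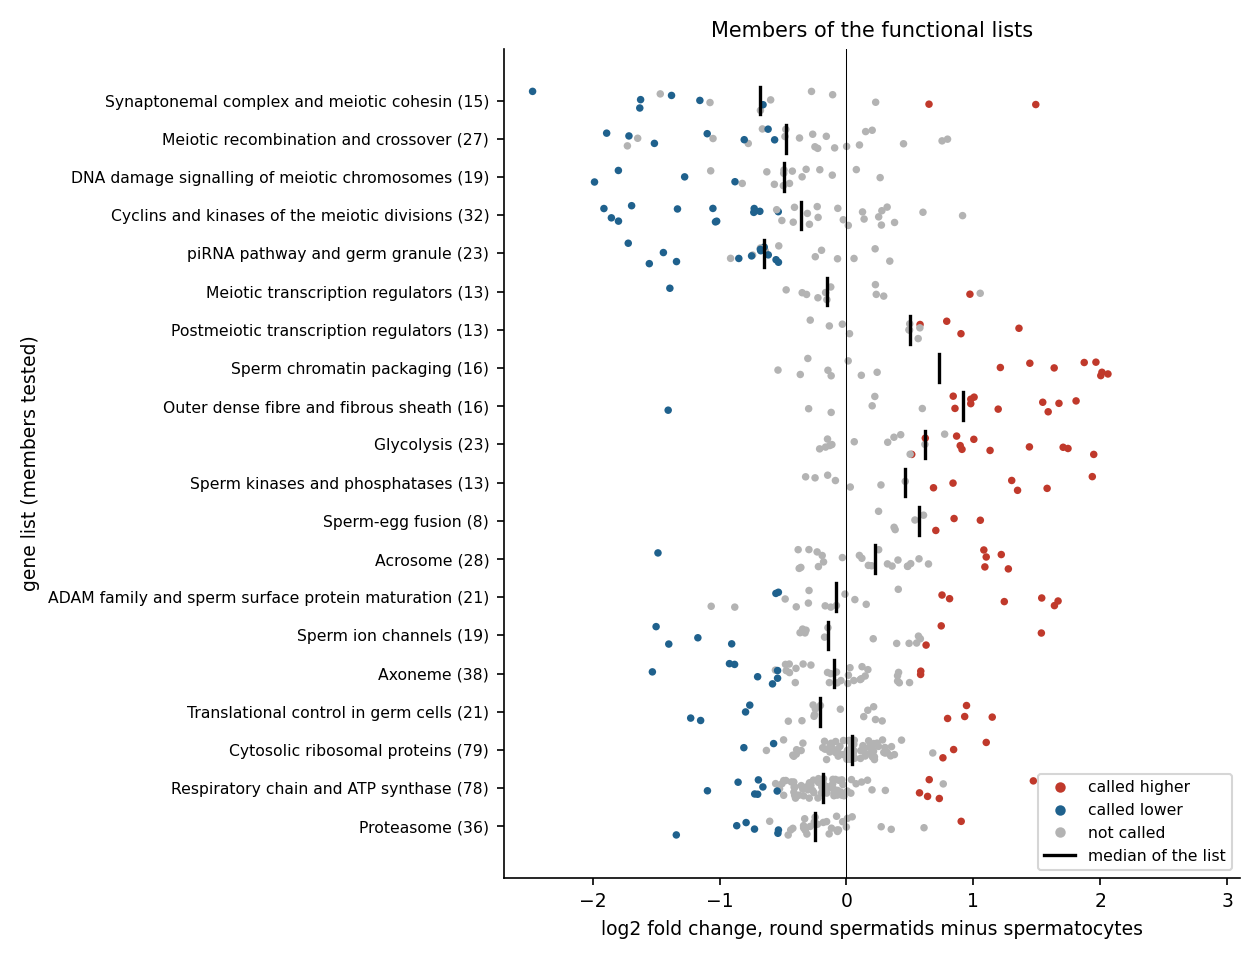
Log2 fold change (horizontal axis) of each tested member of 20 functional lists (vertical axis, number tested in brackets); red points were called higher in round spermatids, blue points lower, grey points were not called, and the black bar is the median of the list. The first 5 lists, of meiotic function, lie mostly to the left, and packaging, sheath, glycolysis and kinase genes mostly to the right.

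Lists of meiotic function had negative medians throughout. In the synaptonemal complex and meiotic cohesin list 6 of 15 tested genes were lower and 2 higher (median -0.68). The number of higher ones was 1 without round spermatid replicates 2 or 4 or spermatocyte replicates 1, 2 or 4. Besides Sycp2 and Sycp3, Hormad1, which marks chromosome axes that have not yet paired, fell by 1.62 ± 0.27 (adjusted p = 0.00184), from 65.99 ± 26.96 CPM (SD, n = 4) to 21.4 ± 1.82 CPM (SD, n = 3). Syce2, of the central element, went the other way with 286, 187 and 228 CPM in round spermatids and 90.9, 101, 57.6 and 82.7 CPM in spermatocytes (log2 fold change 1.49 ± 0.20 SE, adjusted p = 0.000636), and its fractions did not overlap. Stag3, a meiotic cohesin subunit, was at 499 to 522 CPM in round spermatids and 472 to 595 CPM in spermatocytes and was not called (log2 fold change -0.11 ± 0.11 SE, adjusted p = 0.49), and neither was Syce1 (log2 fold change -0.28 ± 0.10 SE, adjusted p = 0.0573).

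Recombination genes were lower in 7 of 27 cases and higher in none (median -0.48), although without spermatocyte replicate 4 the median was -0.24 and 1 gene was higher, and 11 were lower under the block of consecutive library numbers and also with library totals. Hfm1, a helicase of crossover formation, was at 7.74, 10.1 and 9.89 CPM in round spermatids and 37.3, 22.9, 57.7 and 19.04 CPM in spermatocytes (log2 fold change -1.89 ± 0.35 SE, adjusted p = 0.00299). Mlh3, which resolves crossover intermediates, fell by 1.71 ± 0.30 (adjusted p = 0.00206), and Spo11, the enzyme that makes the breaks, by 0.57 ± 0.13 (adjusted p = 0.00736). Dmc1, the meiotic recombinase, named after its values were seen, was not called at 4.52 to 6.23 CPM in round spermatids and 2.29 to 5.19 CPM in spermatocytes. In the list of DNA damage signalling 4 of 19 were lower and none higher (21.1% lower, against 11.3% over all genes, with a median of -0.49). The count was 2 without round spermatid replicates 1, 2 or 4 or spermatocyte replicates 1 or 4 and 10 without spermatocyte replicate 5, and 7 under the block and with library totals. Atr, the kinase that acts on unpaired chromosomes, was at 62.2, 72.8 and 91.5 CPM in round spermatids and 280.3, 268, 453 and 194 CPM in spermatocytes (log2 fold change -1.99 ± 0.26 SE, adjusted p = 0.000636). All round spermatid libraries were below the lowest spermatocyte library, replicate 5. Mdc1, which spreads the damage mark over the sex chromosomes, overlapped between fractions and was not called (log2 fold change -0.57 ± 0.26 SE, adjusted p = 0.125). Without spermatocyte replicate 5 it was called lower (-0.78, adjusted p = 0.00374).

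Cyclins and kinases of the meiotic divisions were lower in 12 of 32 cases and higher in none, or in 1 without round spermatid replicate 1 (median -0.36). Fbxo43, an inhibitor of the anaphase-promoting complex, was at 13.3, 8.58 and 10.7 CPM in round spermatids and 44.1, 40.9, 49.8 and 28.8 CPM in spermatocytes (log2 fold change -1.91 ± 0.23 SE, adjusted p = 0.000578). Sgo2a, the shugoshin that guards centromeric cohesion through the first division, fell by 1.85 ± 0.18 (adjusted p = 0.000578) and Ccne2, a cyclin E, by 1.80 ± 0.38 (adjusted p = 0.00627). Aurka, the spindle kinase, was at 226 to 288 CPM in round spermatids and 269 to 344 CPM in spermatocytes and was not called (log2 fold change -0.23 ± 0.13 SE, adjusted p = 0.214). Of 23 piRNA pathway and germ granule genes, 12 were lower and none higher (median -0.65), and the count was 7 without round spermatid replicates 1 or 4 and 5 without round spermatid replicate 2. Tdrd5, a Tudor protein that routes piRNA precursors, was at 41.2, 23.7 and 30.8 CPM in round spermatids and 133, 84.6, 155 and 47.6 CPM in spermatocytes (log2 fold change -1.72 ± 0.35 SE, adjusted p = 0.00509), with the lowest spermatocyte library, replicate 5, just above the highest round spermatid library. Piwil1, which binds the pachytene piRNAs, was at 199.8, 105 and 124.3 CPM in round spermatids and 547, 296, 656 and 182 CPM in spermatocytes (log2 fold change -1.55 ± 0.39 SE, adjusted p = 0.0135), and here spermatocyte replicate 5 lay inside the range of the round spermatids. Mael, an abundant component of the germ granule, was at 1183 to 1293 CPM in round spermatids and 1356 to 1499 CPM in spermatocytes and was not called. Tdrd6, a scaffold of the chromatoid body, was at 995 to 1068 CPM in round spermatids and 903 to 1263 CPM in spermatocytes, without a call.

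**Figure D4:**
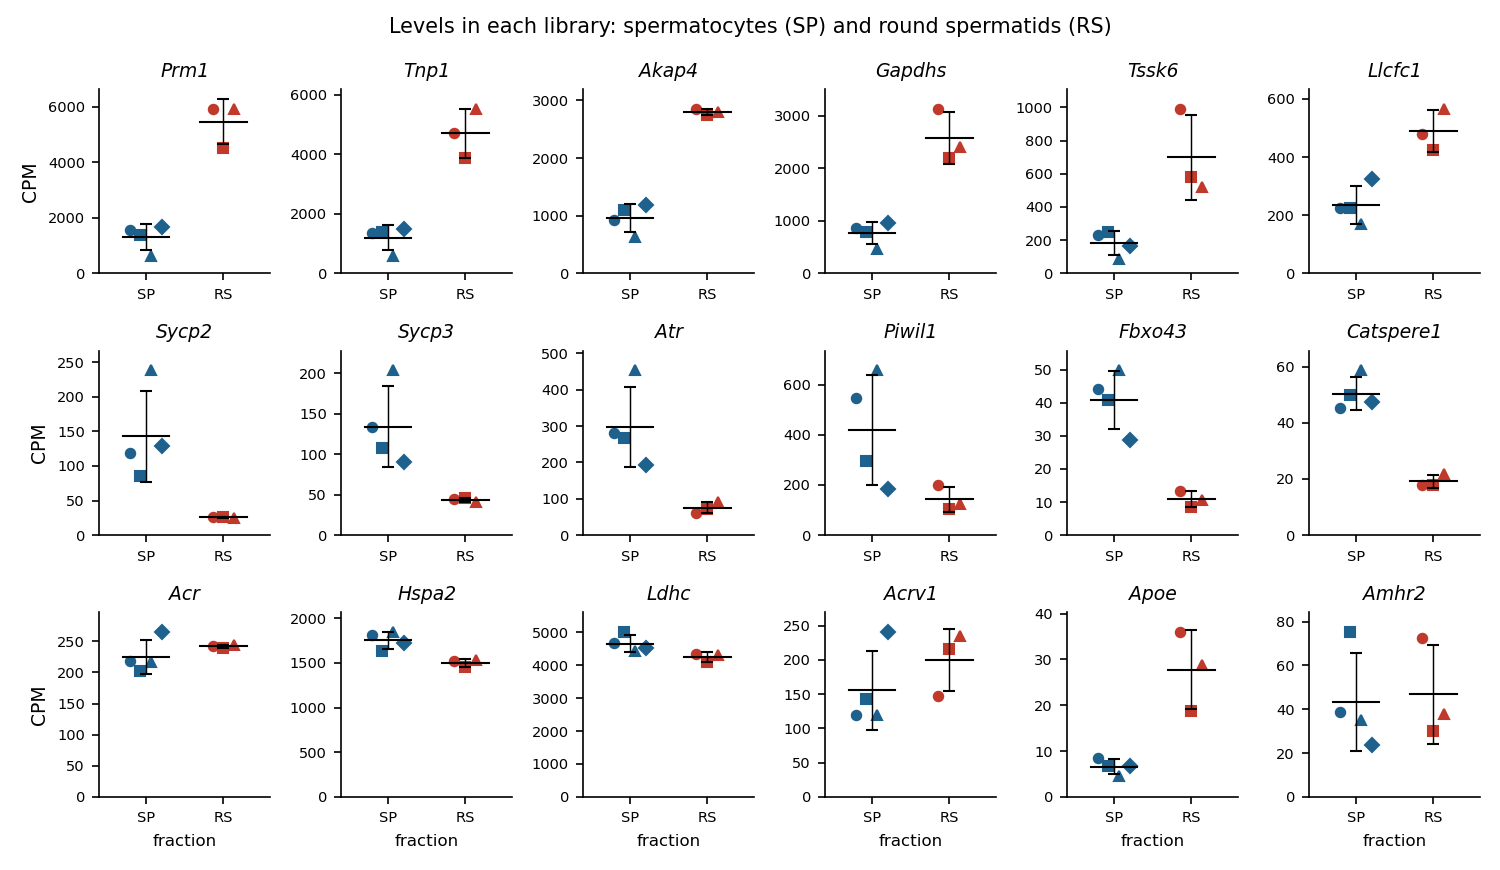
CPM (vertical axis, starting at 0) of 18 genes in the 4 spermatocyte (SP, blue) and 3 round spermatid (RS, red) libraries, with the mean and SD as black bars; circles, squares, triangles and diamonds mark replicates 1, 2, 4 and 5. The first 6 genes were higher in round spermatids, the next 6 lower, and Acr, Hspa2, Ldhc, Acrv1 and Amhr2 in the last row were not called, whereas Apoe was higher.

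Transcription regulators of the pachytene stage were mostly not called. Of 13, Mybl1 was lower and Stra8, which starts meiosis in far younger cells, was higher at low levels, 7.47 to 9.42 CPM in round spermatids and 3.66 to 5.63 CPM in spermatocytes (log2 fold change 0.97 ± 0.22 SE, adjusted p = 0.00856). The counts were 2 and 2 under the block of consecutive library numbers, library totals gave 4 lower, and 2 were higher without spermatocyte replicate 4 and 2 lower without round spermatid replicate 2. The median was -0.15, and Tcfl5 and Zfp541, regulators of the pachytene program, had log2 fold changes of -0.16 ± 0.11 and 0.23 ± 0.10. Regulators of the haploid program were higher in 4 of 13 cases and lower in none (median 0.50), and in 9 without spermatocyte replicate 5. Kif17, a kinesin that controls where the coactivator of CREM sits, was at 877, 743 and 728 CPM in round spermatids and 295, 305, 255 and 365 CPM in spermatocytes (log2 fold change 1.36 ± 0.13 SE, adjusted p = 0.000578), and Fhl5, that coactivator, rose by 0.90 ± 0.19 (adjusted p = 0.00587). Crem itself, named after its values were seen, had a log2 fold change of 0.02 ± 0.15 (adjusted p = 0.921). Tbpl1 and Gtf2a1l, general factors of the testis, were not called (-0.29 ± 0.11 and -0.03 ± 0.11).

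Translational control genes were higher in 4 and lower in 4 of 21 cases (19% each, against 13.1% and 11.3% over all genes). The median of -0.21 was -0.06 without spermatocyte replicate 4, -0.08 without round spermatid replicate 1 and -0.10 without round spermatid replicate 4, whereas the counts held without each of the 7 libraries, except that 3 were lower without round spermatid replicate 4. Pabpc6, a testis poly(A)-binding protein, was at 309, 283 and 294 CPM in round spermatids and 603, 691, 714 and 609.6 CPM in spermatocytes (log2 fold change -1.15 ± 0.11 SE, adjusted p = 0.000578). Tent5c, a poly(A) polymerase, was at 1217, 1019.5 and 936 CPM in round spermatids and 478, 542, 366 and 521 CPM in spermatocytes (log2 fold change 1.15 ± 0.15 SE, adjusted p = 0.000591). The cap-binding factor Eif4e rose by 0.95 ± 0.15 (adjusted p = 0.00142), as did Paip2, a repressor of poly(A)-binding proteins, by 0.93 ± 0.15 (adjusted p = 0.00148). Pabpc1, the general poly(A)-binding protein and among the 5 most abundant genes of the spermatocytes, was below in every round spermatid library at 2334 to 2431 CPM in round spermatids and 3071 to 3453 CPM in spermatocytes, with an adjusted p of 0.0038 and a log2 fold change of -0.46, short of the size required. Ybx2, which keeps stored mRNAs silent, was at 2508 to 3136 CPM in round spermatids and 2153 to 2409.5 CPM in spermatocytes and was not called.

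Genes of general cell function differed between lists. Of 79 tested cytosolic ribosomal protein genes 3 were higher and 2 lower (median 0.04, turning to -0.15 with library totals), or 3.80% and 2.53% of the list against 13.1% and 11.3% over all genes, and library totals gave 0 and 8. The number of higher ones was 1 without round spermatid replicates 1 or 2 or spermatocyte replicates 1 or 4, that of lower ones 7 without spermatocyte replicate 5, and the median lay between 0.00 and 0.10 without 1 library. Rplp0 was at 889, 807 and 851 CPM in round spermatids and 850.4, 735, 762 and 749 CPM in spermatocytes (log2 fold change 0.13 ± 0.10 SE, adjusted p = 0.344). The respiratory chain and ATP synthase had 5 higher and 7 lower of 78 (median -0.19), or 6.41% and 8.97%, with 2 higher and 25 lower under library totals and 4 lower with upper-quartile factors. The number of lower ones was 3 without round spermatid replicate 2, 4 without spermatocyte replicates 1, 2 or 4 and 17 without spermatocyte replicate 5, and that of higher ones 2 without round spermatid replicate 4 and 3 without spermatocyte replicate 1. Cox7b2, a testis form of a subunit of cytochrome oxidase, fell by 0.72 ± 0.12 (adjusted p = 0.00135), while Atp5b, of the ATP synthase, was not called (log2 fold change -0.11 ± 0.10 SE, adjusted p = 0.415). In the proteasome, 1 of 36 was higher and 6 were lower (2.78% and 16.7%, median -0.24), with 12 lower under library totals, 2 higher under the block of consecutive library numbers, and 2 higher and 9 lower without spermatocyte replicate 5. Psma8, the germ cell subunit of the meiotic proteasome, was at 65.9, 41.5 and 52.6 CPM in round spermatids and 162, 114, 187 and 78.3 CPM in spermatocytes (log2 fold change -1.34 ± 0.27 SE, adjusted p = 0.00492). Psma6, the 1 called higher with all 7 libraries, was at 589, 575 and 658 CPM in round spermatids and 297, 344, 249 and 408 CPM in spermatocytes (log2 fold change 0.90 ± 0.15 SE, adjusted p = 0.00188). Both subunits of the core particle separated the fractions without overlap, in opposite directions.

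Called X-linked genes were nearly all higher in round spermatids. Of 667 tested, 136 were higher in round spermatids (20.4%) and 1 was lower (0.150%), against 2293 higher (12.9%) and 2097 lower (11.8%) of 17787 autosomal genes. The median log2 fold change was 0.47 on the X and 0.00 on the autosomes, and 80.8% of X-linked genes had a positive value. The difference of the medians was 0.465 and lay between 0.338 and 0.568 over the alternatives of scaling, filter, tool and libraries. X-linked genes gave 0.959%, 1.04% and 1.06% of all counts in the round spermatid libraries and 0.557%, 0.623%, 0.503% and 0.785% in the spermatocyte libraries. Every round spermatid share was above every spermatocyte share, replicate 5 being the highest of the latter (means 1.02% ± 0.0526 and 0.617% ± 0.122, SD, n = 3 and 4, exact permutation p = 0.0571, adjusted 0.0952). Autosomes, taken 1 by 1, had 10.2% to 14.9% of genes higher and 9.78% to 13.7% lower. On the Y, 3 of 157 tested genes were higher and none lower, and its share of counts was 0.0344% ± 0.0088 (SD, n = 3) against 0.0328% ± 0.0112 (SD, n = 4). Most Y-linked genes have near-identical copies, so their counts are uncertain.

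**Figure D5:**
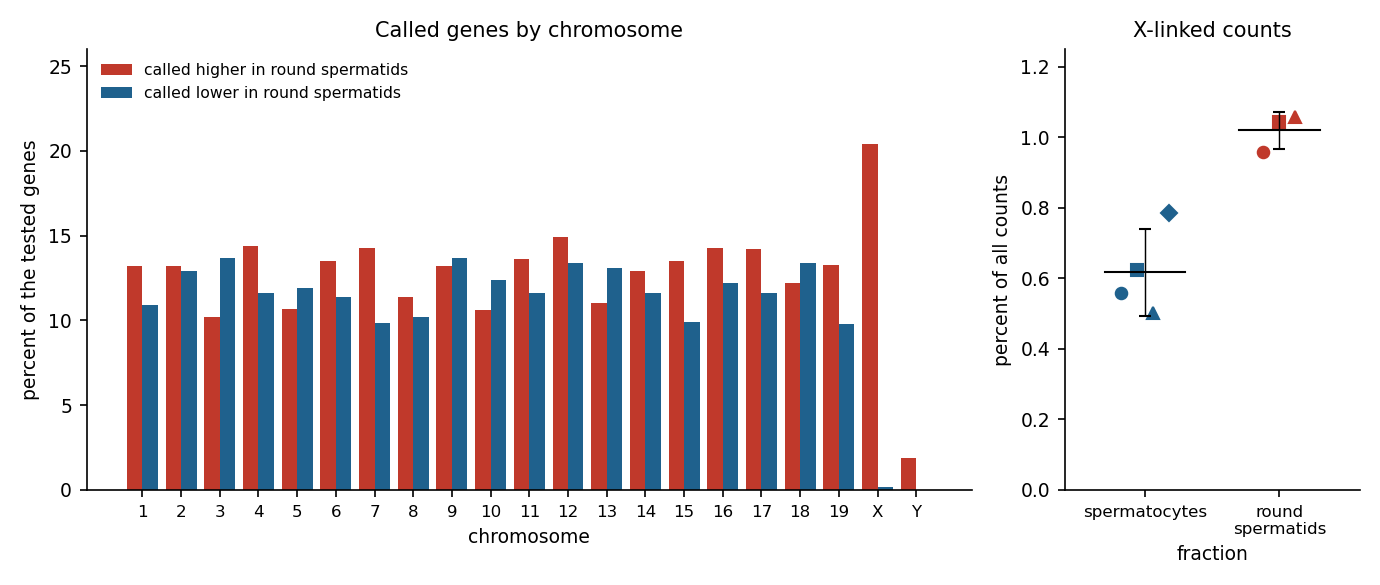
Left, percent of the tested genes of each chromosome (horizontal axis) that were called higher (red) or lower (blue) in round spermatids; right, percent of all counts from X-linked genes in each library, with the mean and SD as black bars. The X has 20.4% of its genes called higher and 0.150% lower, and the 3 round spermatid libraries lie above the 4 spermatocyte libraries in X-linked counts.

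The 5 most abundant X-linked protein-coding genes called higher were Akap4, Prdx4, Cdk16, Tsga8 and Tspan6. Cdk16, a kinase of spermatid differentiation, was at 242, 174 and 162 CPM in round spermatids and 66.03, 65.02, 39.7 and 63.4 CPM in spermatocytes (log2 fold change 1.72 ± 0.20 SE, adjusted p = 0.000578). Prdx4, a peroxiredoxin of the secretory pathway, was at 219.5, 208 and 242 CPM in round spermatids and 77.4, 79.3, 48.7 and 99.8 CPM in spermatocytes (log2 fold change 1.55 ± 0.20 SE, adjusted p = 0.000591). Each had no overlap, and spermatocyte replicate 4 was lowest in both. The call on Tsga8 was lost without any 1 library other than spermatocyte replicate 5 (adjusted p between 0.059 and 0.142). Atrx, a chromatin remodeler, was the single lower gene, at 1.03, 1.03 and 1.05 CPM in round spermatids and 1.30, 2.51, 2.52 and 1.98 CPM in spermatocytes (log2 fold change -0.99 ± 0.33 SE, adjusted p = 0.0433), at a low level throughout. It was not called under the block of consecutive library numbers (adjusted p = 0.0704) or without any 1 round spermatid library or spermatocyte replicate 2 or 4 (adjusted p between 0.0908 and 0.129).

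Autosomal retrogenes that copy X-linked housekeeping genes were set beside their parents, as CPM per kilobase of exon so that levels can be compared between genes. Parent and copy share sequence, so their reads can be lost or split by the counting. Pgk2, the testis copy of the glycolytic enzyme Pgk1, had a mean of 809.5 CPM per kilobase in round spermatids against 430.5 in spermatocytes and was higher (log2 fold change 0.91 ± 0.16 SE, adjusted p = 0.00202), while Pgk1 had 3.62 against 2.12, with no overlap, and was not called (adjusted p = 0.0507). Pgk1 was called higher without spermatocyte replicate 2 (adjusted p = 0.0328) or 5 (0.0353) and under the block of consecutive library numbers (adjusted p = 0.00676). In both fractions the copy exceeded the parent by far. Ubl4b, the copy of a protein-folding gene, had 394 against 117 (log2 fold change 1.75 ± 0.25 SE, adjusted p = 0.000854), and its parent Ubl4a 3.49 against 2.39, without a call (adjusted p = 0.0639, but 0.0301 without spermatocyte replicate 5 and 0.0359 under the block). For Cstf2 and its copy, which cut pre-mRNA 3′ ends, the order of the means was reversed between fractions, though in round spermatid replicate 1 the copy was above the parent as in spermatocytes. The parent Cstf2 had 7.95 against 4.65 and rose by 0.77 ± 0.18 on the log2 scale (adjusted p = 0.0101, but 0.052 without round spermatid replicate 4), and the copy Cstf2t had 6.97 against 12.03 and fell by 0.79 ± 0.21 (adjusted p = 0.0162, but 0.0863 and 0.0581 without round spermatid replicates 2 and 4). Gk, the parent of the glycerol kinase copy Gk2, rose from a very low level with 0.266 against 0.0761 CPM per kilobase (log2 fold change 1.78 ± 0.31 SE, adjusted p = 0.00228), whereas Gk2 had 478 against 519 and was not called. Over the 12 pairs, 5 X-linked parents were called higher and none lower, where 20.4% of all tested X-linked genes were higher and 0.150% lower. Of the copies 3 were higher and 3 lower, where 12.9% of all tested autosomal genes were higher and 11.8% lower. These counts rested on single libraries, with 2 to 8 parents higher, 2 to 3 copies higher and 0 to 2 copies lower when 1 library was left out. Of the 5 parents Gk alone was called without each of the 7 libraries. Under the block the parent Pdha1 was no longer called (adjusted p = 0.0664), and the parent Zrsr2 was (adjusted p = 0.0363).

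Classes of noncoding genes had different shares of calls, which were not tested against each other. Of 1691 lincRNAs 297 were higher and 141 lower (17.6% and 8.34%), and of 1034 antisense transcripts 173 were higher and 58 lower (16.7% and 5.61%), against 12.6% and 12.3% of 14187 protein-coding genes. Of 517 processed pseudogenes 57 were higher and 46 lower, and of 276 genes still to be experimentally verified (TEC) 22 were higher (7.97%) and 33 lower. The libraries were directional, but the strand that the counting used is not known, so reads of an antisense transcript and of its partner cannot be told apart. 4930571K23Rik was at 1555, 1045 and 873 CPM in round spermatids and 368, 348, 212 and 387 CPM in spermatocytes (log2 fold change 1.82 ± 0.23 SE, adjusted p = 0.000579), and 1700027A15Rik rose by 1.84 ± 0.26 (adjusted p = 0.000854). Both had no overlap between fractions. Among those that fell was 1700029M20Rik, with 218, 158 and 174 CPM in round spermatids and 399, 289, 393 and 249.9 CPM in spermatocytes (log2 fold change -0.86 ± 0.18 SE, adjusted p = 0.00634). Genes that were higher were also shorter, with a median exon length of 2743 bases, against 3366 over all tested genes and 4303 for genes that were lower. Within protein-coding genes the gap was smaller, with medians of 3970, 4252 and 4942.5 bases.

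Markers of other testis cells were read because the fractions are not pure. None of 14 Sertoli genes was called, and the most abundant, Clu, varied as much within as between fractions at 306, 112 and 155 CPM in round spermatids and 145, 276, 152 and 108 CPM in spermatocytes. Amhr2, the receptor of the hormone that these cells secrete, overlapped as widely at 29.9 to 72.4 CPM in round spermatids and 23.8 to 75.1 CPM in spermatocytes. Under the block of consecutive library numbers 4 of the 14 were higher, and 2 were without spermatocyte replicate 2. Among Leydig genes 1 of 9 tested was called, Fdx1, with overlapping libraries (log2 fold change -0.55 ± 0.19 SE, adjusted p = 0.0481), and that call was lost without any 1 library other than spermatocyte replicate 5 (adjusted p between 0.063 and 0.199) and under the same block (adjusted p = 0.0927), under which Nr5a1, a regulator of steroid synthesis, was higher (0.83, adjusted p = 0.0198), and the median of the Leydig list, 0.06, lay between -0.56 and 0.55 when 1 library was left out. Star, a defining gene, was at 1.22 to 1.96 CPM in round spermatids and 1.82 to 2.17 CPM in spermatocytes. Of 6 peritubular and endothelial genes 2 were higher, Acta2 and Myh11, both at 3.40 CPM or less, and the call on Acta2 was lost under the block (adjusted p = 0.061) and without any 1 round spermatid library or spermatocyte replicate 2 or 4 (adjusted p between 0.0598 and 0.171). Alas2, the 1 erythrocyte gene tested, was not called, but it was higher under the block (0.85, adjusted p = 0.044). Macrophage genes were divided. Of 9 tested, 6 were higher in round spermatids and none lower, and the summed level of the list was 40.8 to 59.1 CPM in round spermatids against 14.02 to 20.7 CPM in spermatocytes. Apoe, a lipoprotein that macrophages and some other cells make, was at 35.9, 18.6 and 28.7 CPM in round spermatids and 8.42, 6.72, 4.51 and 6.65 CPM in spermatocytes (log2 fold change 2.08 ± 0.26 SE, adjusted p = 0.000588), and C1qb, a complement subunit, rose by 2.22 ± 0.35 (adjusted p = 0.00133). Lyz2, the macrophage lysozyme, was at 0.940, 1.18 and 0.772 CPM in round spermatids and had no counts in any spermatocyte library. Lyz2, C1qa and Cd74 passed the filter through the round spermatid libraries alone, so that they had to differ if they were tested. Without a round spermatid library they were no longer tested, and the number of higher macrophage genes was 2 without round spermatid replicates 1 or 2 and 3 without round spermatid replicate 4. Mrc1, a defining gene of tissue macrophages, was not called, at 3.38 to 7.03 CPM in round spermatids and 3.15 to 9.37 CPM in spermatocytes. Adgre1, another such gene, was at 1.57 to 2.25 CPM in round spermatids and 1.35 to 2.76 CPM in spermatocytes and was not called. Spermatogonial genes were higher in 5 of 14 cases and lower in 1. Their summed level overlapped, at 91.3 to 107 CPM in round spermatids and 73.8 to 119.7 CPM in spermatocytes. The number of higher ones was 2 without round spermatid replicate 1 or spermatocyte replicate 1, 1 without round spermatid replicate 2 and 3 without round spermatid replicate 4, and 3 with library totals. Id4, a regulator of spermatogonial stem cells, was the lower one, at 25.2, 13.97 and 16.7 CPM in round spermatids and 62.7, 39.4, 66.2 and 23.3 CPM in spermatocytes (log2 fold change -1.36 ± 0.34 SE, adjusted p = 0.0135). Its libraries overlapped, and the call was lost without round spermatid replicate 2 or 4. Sohlh1, a factor of differentiating spermatogonia, was at 3.04, 3.76 and 3.44 CPM in round spermatids and 1.68, 1.55, 0.971 and 1.65 CPM in spermatocytes (log2 fold change 1.22 ± 0.28 SE, adjusted p = 0.00848). Some macrophage genes, such as Apoe and C1qb, were thus higher in the same fraction as the 2433 genes called higher, whereas Mrc1 and Adgre1 were not called. Most of the elongating spermatid list was higher there too. The part of other cells in the 2433 calls was not tested.

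The 4 Argonaute genes are intact in these mice, and 1 of them was called. Ago4 was at 20.9, 16.4 and 14.5 CPM in round spermatids and 37.3, 27.2, 46.9 and 17.4 CPM in spermatocytes (log2 fold change -0.90 ± 0.30 SE, adjusted p = 0.0443), with spermatocyte replicate 5 inside the round spermatid range, and the call was lost without any 1 of the other libraries (adjusted p between 0.0564 and 0.16). Ago1, Ago2 and Ago3 were not called, with log2 fold changes of 0.11 ± 0.26, -0.69 ± 0.38 and -0.58 ± 0.32. Under the block of consecutive library numbers Ago2 (-0.79, adjusted p = 0.0392) and Ago3 (-0.64, adjusted p = 0.0486) were called lower, and Ago2 was also called without spermatocyte replicate 5 (adjusted p = 0.0324). Whether the difference between fractions depended on genotype was asked of 20404 genes in 21 libraries of the 6 groups. No gene was called by edgeR for null against wild-type mice (1215 with an unadjusted p under 0.05, 5.95%) or for heterozygous against wild-type mice (1576, 7.72%), so 0.0% were called in each, and DESeq2 called none in either (1411 and 1813 with an unadjusted p under 0.05). Without spermatocyte replicate 5 the numbers at an unadjusted p under 0.05 rose to 3116 and 3333, and without any 1 of the other wild-type libraries they were 654 to 1734 and 921 to 1712, still with no call.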

How the data were processed

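Counts per gene were deposited by the authors as a single table of raw, unnormalized counts for 24 libraries. Per the labels, poly(A) RNA was sequenced, reads were trimmed with Trim Galore and aligned with STAR to mm10, whose gene counting gave the counts. STAR counts reads that align to 1 place, so near-identical copies lose reads. Tool versions, the strand column of the counting and the annotation release are not given in the sources used here, and all 55536 identifiers were matched to GENCODE M21.

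Groups and replicate numbers came from the labels. Genes with 10 or more counts in 3 or more of the 7 libraries were tested with edgeR 4.0.16 (R 4.3.3; glmQLFit, glmQLFTest, TMM, no block), with Benjamini-Hochberg adjustment, and the call needed both 0.05 in adjusted p and 0.5 in log2 fold change. The fit was also run on simulated counts in which a few genes were changed, as many up as down. That run cannot test the scaling of data in which many genes differ. Library means and shares were compared by two-sided exact permutation tests. Alternatives were DESeq2 1.42.0 and other scalings, filters, thresholds, libraries and blocks. Mean log2 CPM used a prior count of 2.

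Replicate numbers of the labels did not pair the fractions: deviations from the group means correlated at 0.365, -0.208 and -0.167 for numbers 1, 2 and 4. Libraries with consecutive library numbers did (29 and 30, 0.365; 41 and 42, 0.155; 77 and 78, 0.347), so their block is given beside the results it changed. No label states this pairing, and 41 with 78 (0.209) and 29 with 36 (0.297) also correlated.

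Members and lists were chosen with earlier results of these data known. Named genes follow a rule: for each functional list, up to 3 genes called in each direction with the largest change, the 3 most abundant and 2 that were not called; the 10 largest changes in each direction among protein-coding genes with 10 CPM or more; the 5 most abundant genes of each fraction; the 5 most abundant called noncoding and X-linked genes in each direction; and all cell type markers, retrogene pairs and Argonautes. Exceptions are marked where they occur. Not every gene that the rule selects is described here.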

Additional observations from a re-analysis of the deposited data

Results flagged for a closer look

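In 15 of 191 groups of 4 spermatocyte libraries, 1 library stood far from the other 3, where chance gives about 1 in 20 (Dixon's test at the 95% level). Spermatocyte replicate 5 was the high one in 4 of them. It had 0.0495% of its counts from Y-linked genes, against 0.0259% to 0.0290% in the others. Its mean log2 CPM was 7.29 for the haploid transcription regulators (6.74 to 6.77 in the others), 6.02 for the fusion genes (5.14 to 5.25) and 6.63 for the early round spermatid list (5.77 to 5.88).

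Spermatocyte replicate 4 was the library apart in 10. It was low for the late round spermatid list, at 5.21 (6.14 to 6.25 in the others), and for the elongating spermatid list, at 6.92 (7.65 to 7.71). It was also low in 5 single genes that were higher in round spermatids, with 593 CPM of Tnp1 (1347 to 1495 in the others), 86.9 CPM of Ubl4b (183 to 194), 39.7 CPM of Cdk16 (63.4 to 66.03), 38.4 CPM of Oxct2a (94.7 to 100.5) and 31.2 CPM of Calr3 (52.6 to 56.4). In 3 genes it was the high library, with 172 CPM of Hydin (121 to 127 in the others), 11.3 CPM of Ago3 (5.09 to 6.06) and 4.27 CPM of Ago1 (2.98 to 3.11). Spermatocyte replicate 2 was apart once, with 159.8 CPM of Ovol2, a regulator of pachytene cells, against 116 to 122 CPM. The cause of these gaps was not tested.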

How the results depend on the processing

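The counts of called genes, 2433 higher and 2099 lower, were within 1.5 times of these with DESeq2, other size factors, other filters and all 6 groups in the fit, except that library totals gave 3712 lower genes. With 1 library left out they ran from 1738 to 3697 higher and from 1092 to 3213 lower, both maxima without spermatocyte replicate 5 and the lowest count of lower genes without round spermatid replicate 2 (1213 without round spermatid replicate 4). A fold change above 2 left 1564 and 917, and a test against a log2 fold change of 0.5 left 1314 and 653, by construction fewer. With the 2 libraries called outliers added back no gene and no list member was called (0), C1qa (-0.063), Cd74 (-0.47) and Fsip2 (0.53) changed sign, and the difference in X-linked share was 0.299 percentage points (exact permutation p = 0.0476). The cause was not tested. The difference in Y-linked share ran from -0.00114 to 0.00706 percentage points without 1 library, against 0.00153 with all, and turned negative without round spermatid replicate 2 or 4 or spermatocyte replicate 1 or 2. The replicate block by the numbers of the labels gave 3594 and 2885 genes, and that by consecutive library numbers 2914 and 2541, with 4375 of the 4532 calls kept.

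With 3 and 4 pools, a p of 0.0571 is the smallest an exact test can reach. Differences in stage mixture between fractions and differences within a stage cannot be told apart in bulk RNA. Genes near the filter differ by necessity if only 1 fraction expresses them. Annotation, strand and multicopy families limit antisense, Y-linked and retrogene counts.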
